A study of Arabidopsis thaliana with 12 samples.

Results

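The comparison described here is the normal course of late seed maturation in Arabidopsis thaliana: wild-type (Col-0) seeds at 16 days after flowering (DAF) set against wild-type seeds at 12 DAF. Its members were all probe sets of the Affymetrix array other than controls, 22746 of 22810, measured on 6 of the 12 arrays of the series. The 4 groups, with 3 arrays each, were wild-type seeds at 16 DAF, wild-type seeds at 12 DAF, seeds of homozygous abi3-6 plants at 16 DAF and abi3-6 seeds at 12 DAF. The abi3-6 allele disrupts ABI3, a regulator of seed maturation with a B3 domain, and its arrays entered to estimate the spread and to ask where the wild-type course differed from that of the mutant. All plants grew under long days, whole developing seeds were dissected out of the siliques, and each array held RNA of a separate batch of plants. Embryo, endosperm and seed coat were therefore measured together, and in such bulk tissue fewer cells of a type and less RNA per cell cannot be told apart.

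Seed maturation follows embryo patterning. The embryo fills with storage proteins and oil under the control of ABI3, FUS3, LEC1 and LEC2 and of the hormone abscisic acid, and it greens for a time. In the last phase it accumulates late embryogenesis abundant (LEA) proteins and small heat shock proteins, which are known to protect membranes and proteins during drying, while chloroplasts are dismantled, water is lost and the supply of sugar through the seed coat ends.

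Values are given below on the log2 scale of the deposited tables, and a change is the mean at 16 DAF minus the mean at 12 DAF with its standard error from the limma fit over 12 arrays. A probe set passed the test when its Benjamini-Hochberg adjusted p was under 0.05. Values under 3.15, the dim limit, were treated as not measurably above the background, and where all 3 arrays of one age lay under it the change is given as a bound ("at least"). Probe sets on which at least 3 of the 12 arrays reached that limit were tested, 14894 in all, and the other 7852 were too dim. Replicates of one age correlated at 0.991 to 0.993 at 16 DAF and at 0.990 to 0.993 at 12 DAF, and arrays of different ages at 0.907 to 0.915. The array median was 4.08 ± 0.03 at 16 DAF and 4.31 ± 0.03 at 12 DAF (SD, n = 3 each). The difference between 3′ and 5′ actin probe sets was −0.21 ± 0.02 at 16 DAF and −0.37 ± 0.17 at 12 DAF (SD, n = 3 each), and the ages overlapped. Replicate 3 of abi3-6 at 16 DAF stood apart: it correlated at 0.929 to 0.933 with the abi3-6 arrays at 12 DAF, where the other 2 replicates correlated at 0.949 to 0.952, and at 0.846 to 0.853 with the wild-type arrays, where the others correlated at 0.869 to 0.879. Results on the genotypes are therefore also given without it. In the labels, the array names of both genotypes at 16 DAF carry a mark that those at 12 DAF lack. The titles of the wild-type arrays at 12 DAF also have a form of numbering that the other groups lack, and its meaning is not stated. Age and a possible array batch therefore cannot be told apart in any change between the ages that follows. Where the changes of both genotypes are compared, a shift equal in both cancels. One that differs between them, such as a shift of the wild-type arrays at 12 DAF alone, does not. The genotypes also differed in technical values. The actin difference was 0.37 ± 0.03 at 16 DAF and 0.37 ± 0.09 at 12 DAF in abi3-6 (SD, n = 3 each), without overlap with wild type. The mean of the spike-in controls was 10.77 and 10.80 in wild type and 10.24 and 10.12 in abi3-6, at 16 and 12 DAF. Their part in the differences between genotypes was not tested.

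Most measured transcripts differed between the ages. Of the 14894 tested probe sets, 4764 (32.0%) were higher and 4519 (30.3%) lower at 16 DAF, 62.3% in all. At least 2-fold differences that passed were 2247 (15.1%) higher and 2819 (18.9%) lower, and at least 32-fold differences were 33 higher and 48 lower. Falls of that size outnumbered rises as deposited, but with each array centred on its own median 3105 probe sets were at least 2-fold higher and 2325 at least 2-fold lower. The 3 arrays at 16 DAF did not overlap the 3 at 12 DAF on 9878 probe sets (66.3%). The median change over all tested probe sets was 0.07 as deposited, and 0.30 when each array was centred on its own median. With that centring 6560 probe sets were higher and 3721 lower, 63.8% of those that passed being higher against 51.3% as deposited, so the balance between rises and falls depended on the scaling. Among the tested probe sets, 248 lay under the dim limit on all 3 arrays at 12 DAF and over it on all 3 at 16 DAF, of which 228 passed, and 385 showed the converse, of which 380 passed. Of all calls, 9 higher and 12 lower had every wild-type array under the dim limit. The shares of 32.0% higher and 30.3% lower are the background for the gene lists below.

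Among single-gene probe sets whose ages did not overlap, the largest rise was that of AT2G34740. Its values were 10.47, 10.87 and 10.83 at 16 DAF, against 4.18, 3.32 and 2.69 at 12 DAF, where 2 of 3 arrays were over the dim limit (change 7.33 ± 0.27, adjusted p = 8.41e-11). AT3G16120 had 9.99, 9.95 and 10.21 at 16 DAF, against 3.75, 3.15 and 3.01 at 12 DAF (change 6.75 ± 0.17, adjusted p = 4.85e-12). Both genes were near the dim limit at 12 DAF and well over it on each array at 16 DAF. A pair of genes that neighbour each other in the RefSeq gene table, AT2G43580 and AT2G43590, rose by 6.58 ± 0.32 and 6.25 ± 0.24. AT2G43580 had 9.31, 9.44 and 9.26 at 16 DAF, against 3.82, 2.23 and 2.21 at 12 DAF. AT2G43590 had 9.96, 10.44 and 9.87 at 16 DAF, against 4.50, 3.35 and 3.68 at 12 DAF. Their next neighbour CHI (AT2G43570), picked after its values were seen, also rose, with 7.19, 7.38 and 7.03 at 16 DAF against 2.84, 2.91 and 3.04 at 12 DAF, at least 16.5-fold.

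The other largest rises included genes of defence, glycosylation and drying. PDF1.2b, a plant defensin, had 9.87, 9.49 and 9.32 at 16 DAF, against 3.87, 3.86 and 3.91 at 12 DAF (change 5.68 ± 0.15, adjusted p = 7.17e-12). Its probe set is of the type that can cross-hybridise with related sequences. UGT85A5, a UDP-glycosyltransferase, had 8.25, 8.35 and 8.72 at 16 DAF, against 2.95, 3.24 and 3.04 at 12 DAF (change 5.37 ± 0.18, adjusted p = 3.83e-11). AT1G26800 rose by 5.50 ± 0.22, and AT2G27830 was at least 37.8-fold higher at 16 DAF. The remaining 4 of the 12 largest rises were M17 and AT3G22490 of the LEA list and the small heat shock genes AT1G52560 and AT1G53540, which are described with their groups.

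The largest falls were of similar size. FACT, an acyltransferase that joins caffeic acid to fatty alcohols, had 3.11, 3.14 and 3.18 at 16 DAF, against 10.53, 10.91 and 10.74 at 12 DAF (change −7.58 ± 0.14, adjusted p = 2.88e-13). Only 1 of the 3 arrays at 16 DAF was over the dim limit. AT4G25980 had 3.37, 3.21 and 3.26 at 16 DAF, against 10.12, 10.58 and 10.44 at 12 DAF (change −7.10 ± 0.15). The neighbouring genes AT2G18360 and AT2G18370 both fell. AT2G18360 had 2.71, 2.76 and 2.83 at 16 DAF, against 9.06, 9.36 and 9.14 at 12 DAF, at least 65.6-fold lower. AT2G18370 had 4.49, 5.33 and 5.12 at 16 DAF, against 11.24, 11.31 and 11.03 at 12 DAF (change −6.21 ± 0.19). AT3G04200 was at least 52.9-fold, AT2G35470 at least 43.1-fold and AT1G04380 at least 26.9-fold lower at 16 DAF. On the log2 scale AT1G62210 changed by −5.49 ± 0.49, AT1G55360 by −5.39 ± 0.23 and AT1G71691 by −5.21 ± 0.26. The 2 remaining members of this set, PSBY and AT1G74470, belong to photosynthesis and chlorophyll synthesis.

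**Figure D1:**
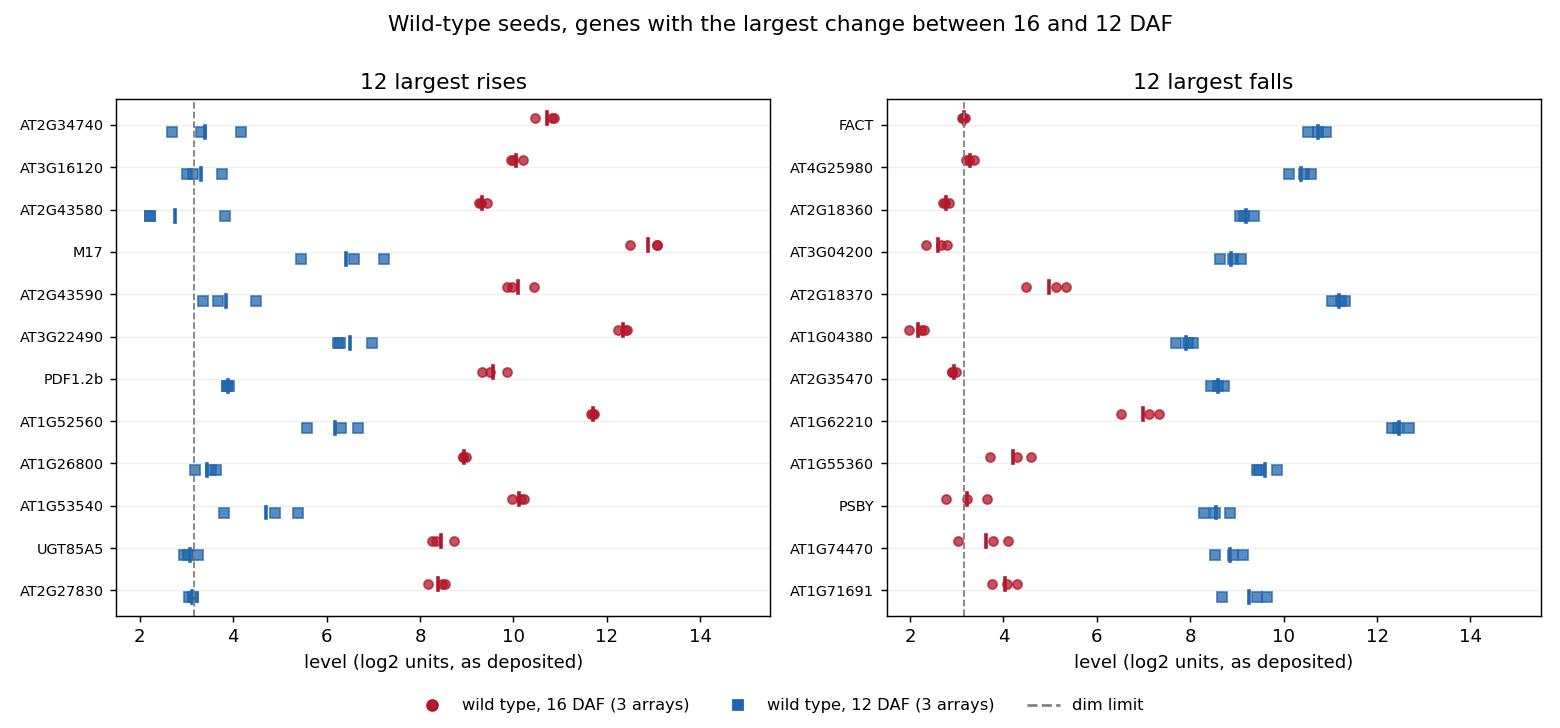
Level of the 12 genes with the largest rise (left) and the 12 with the largest fall (right) in wild-type seeds, with the log2 level as deposited on the horizontal axis; circles are the 3 arrays at 16 DAF, squares the 3 arrays at 12 DAF, short bars the means and the dashed line the dim limit. The genes were chosen for not overlapping, and most that rose were near the dim limit at 12 DAF, as FACT and AT2G18360 were at 16 DAF.

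Most of the 5 storage protein genes on the list did not pass. The list holds no other storage protein gene and does not stand for the reserves as a whole. Of 5 measured seed storage protein genes of the cupin type, which supply the seedling with nitrogen, none was higher, 1 was lower and 4 did not pass, with a median change of −0.39. PAP85, a vicilin-type storage protein, had 14.72, 14.67 and 14.72 at 16 DAF, against 14.59, 14.49 and 14.64 at 12 DAF (change 0.13 ± 0.15, adjusted p = 0.499). AT4G36700 fell, with 11.21, 11.00 and 11.27 at 16 DAF against 12.72, 12.70 and 13.11 at 12 DAF (change −1.68 ± 0.42, adjusted p = 0.00299). AT2G28490 changed by −0.39 ± 0.22 and AT1G03890 by −0.63 ± 0.44, and neither passed although their ages did not overlap. AT2G18540 lay between 6.88 and 7.51 at 16 DAF and between 6.69 and 7.92 at 12 DAF. With the 6 wild-type arrays alone, 3 of the 5 passed as lower.

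Oil body genes moved apart. Oleosins coat oil bodies and keep them from fusing during drying. OLEO3 fell, with 10.04, 10.27 and 10.25 at 16 DAF against 13.18, 13.10 and 13.20 at 12 DAF (change −2.97 ± 0.32, adjusted p = 2.01e-06). AT2G25890, another gene of the oil body list, rose, with 13.08, 13.13 and 13.08 at 16 DAF against 12.67, 12.43 and 12.43 at 12 DAF (change 0.58 ± 0.13, adjusted p = 0.00145). AT3G18570 changed by −0.20 ± 0.41 and AT3G01570 by −0.42 ± 0.28, and neither passed. The arrays of AT3G01570 did not overlap between the ages, and it passed as lower with the wild-type arrays alone (adjusted p = 0.0261).

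Most LEA genes rose. LEA proteins are hydrophilic proteins that accumulate late in the embryo and are linked to tolerance of drying. Of 29 loci on the list 26 were tested, of which 16 were higher (32.0% of all tested probe sets were), 3 lower and 7 did not pass, and the median change was 1.11 against 0.07 over all tested probe sets. At least 2-fold rises were 13, against 15.1% of all. The median was 0.73 with the dim members included and 1.52 with a stricter filter.

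M17 had the largest LEA rise. Its values were 13.07, 12.49 and 13.07 at 16 DAF, against 6.59, 7.22 and 5.44 at 12 DAF (change 6.45 ± 0.43, adjusted p = 1.83e-08), and the 12 DAF replicates spread over more than 1 log2 unit. AT3G22490 had 12.43, 12.25 and 12.40 at 16 DAF, against 6.98, 6.29 and 6.25 at 12 DAF (change 5.85 ± 0.17, adjusted p = 1.46e-11). AT4G36600 had 12.80, 12.42 and 12.81 at 16 DAF, against 7.53, 7.78 and 7.76 at 12 DAF (change 4.99 ± 0.18). In all 3 genes every array at 16 DAF was far over every array at 12 DAF. AT2G18340, M10 and AT2G42560 rose by 4.18 ± 0.17, 3.93 ± 0.27 and 3.47 ± 0.36. Rises between 2 and 2.5 log2 units were seen in AT1G72100 (2.31 ± 0.14), AT3G53040 (2.27 ± 0.21), AT2G23110 (2.25 ± 0.19), LEA4-5 (2.22 ± 0.21) and LEA18 (2.17 ± 0.12).

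LEA genes already high at 12 DAF showed smaller differences. LTI30, a dehydrin known from cold and drought responses, had 13.81, 13.99 and 14.03 at 16 DAF, against 12.60, 12.05 and 12.31 at 12 DAF (change 1.62 ± 0.15). AT3G15670 had 15.21, 15.19 and 15.24 at 16 DAF, against 14.68, 14.67 and 14.63 at 12 DAF. Its ages did not overlap, yet the change of 0.55 ± 0.25 did not pass (adjusted p = 0.069). The gene listed as LEA (AT2G21490) likewise changed by 0.71 ± 0.32 without passing, and AT4G21020 by 0.29 ± 0.32. These standard errors were estimated over the arrays of both genotypes, whereas the wild-type arrays of AT3G15670 lay close together at each age. Not passing in this fit is therefore no measure of the spread between wild-type arrays. No result with the wild-type arrays alone is given for the genes that did not pass here.

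A few members went the other way. COR47, a dehydrin of cold and drought responses in leaves, had 4.93, 4.71 and 3.80 at 16 DAF, against 6.80, 7.33 and 7.03 at 12 DAF (change −2.57 ± 0.32, adjusted p = 7.95e-06). AT1G54410 fell by 1.74 on the log2 scale and AT2G44060 by 1.65. Other genes of cold and dehydration response, 6 of them tested, had 1 rise and 1 fall. SRC2, named for its response to cold, rose by 0.84 ± 0.13, and HVA22C, of a family known for induction by abscisic acid, was at least 1.71-fold lower at 16 DAF.

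Nearly all small heat shock protein genes rose. These proteins bind unfolding proteins without using ATP and are made in maturing seeds without heat. Of 9 tested genes 8 were higher and none lower, with a median change of 3.80, and each of the 8 rose at least 2-fold. AT1G52560 had 11.72, 11.71 and 11.66 at 16 DAF, against 6.66, 6.31 and 5.58 at 12 DAF (change 5.51 ± 0.24, adjusted p = 3.96e-10). AT1G53540 had 10.16, 10.22 and 9.96 at 16 DAF, against 5.39, 4.90 and 3.80 at 12 DAF (change 5.42 ± 0.28, adjusted p = 1.88e-09). In both genes the 16 DAF arrays agreed closely and the 12 DAF arrays were more spread. ATHSP22.0, the small heat shock protein of the endoplasmic reticulum, had 6.50, 6.80 and 6.39 at 16 DAF, against 2.71, 2.69 and 2.49 at 12 DAF, at least 10.6-fold higher. AT1G54050, AT5G37670, AT2G29500 and AT2G19310 rose by 3.81 ± 0.20, 3.80 ± 0.23, 3.55 ± 0.22 and 2.35 ± 0.28, and AT5G51440 was at least 8.4-fold higher at 16 DAF. The exception, AT4G21870, stayed near the dim limit (change −0.12 ± 0.27).

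Larger chaperones and their helpers followed with smaller changes. Of 10 tested genes 7 were higher and none lower, with a median change of 1.01. Hop3, a co-chaperone that links Hsp70 to Hsp90, had 7.99, 7.85 and 8.26 at 16 DAF, against 4.67, 4.76 and 4.67 at 12 DAF (change 3.34 ± 0.15, adjusted p = 5.11e-10). Fes1A, which is known to act with cytosolic Hsp70 in heat tolerance, had 9.04, 8.92 and 9.04 at 16 DAF, against 6.64, 6.55 and 6.12 at 12 DAF (change 2.56 ± 0.19). Hop1 rose by 1.27 ± 0.15, and HSA32, which maintains acquired heat tolerance, by 1.10 ± 0.14. Hsp70-2 did not pass, with 5.73, 5.77 and 5.74 at 16 DAF against 6.63, 5.77 and 6.10 at 12 DAF.

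**Figure D2:**
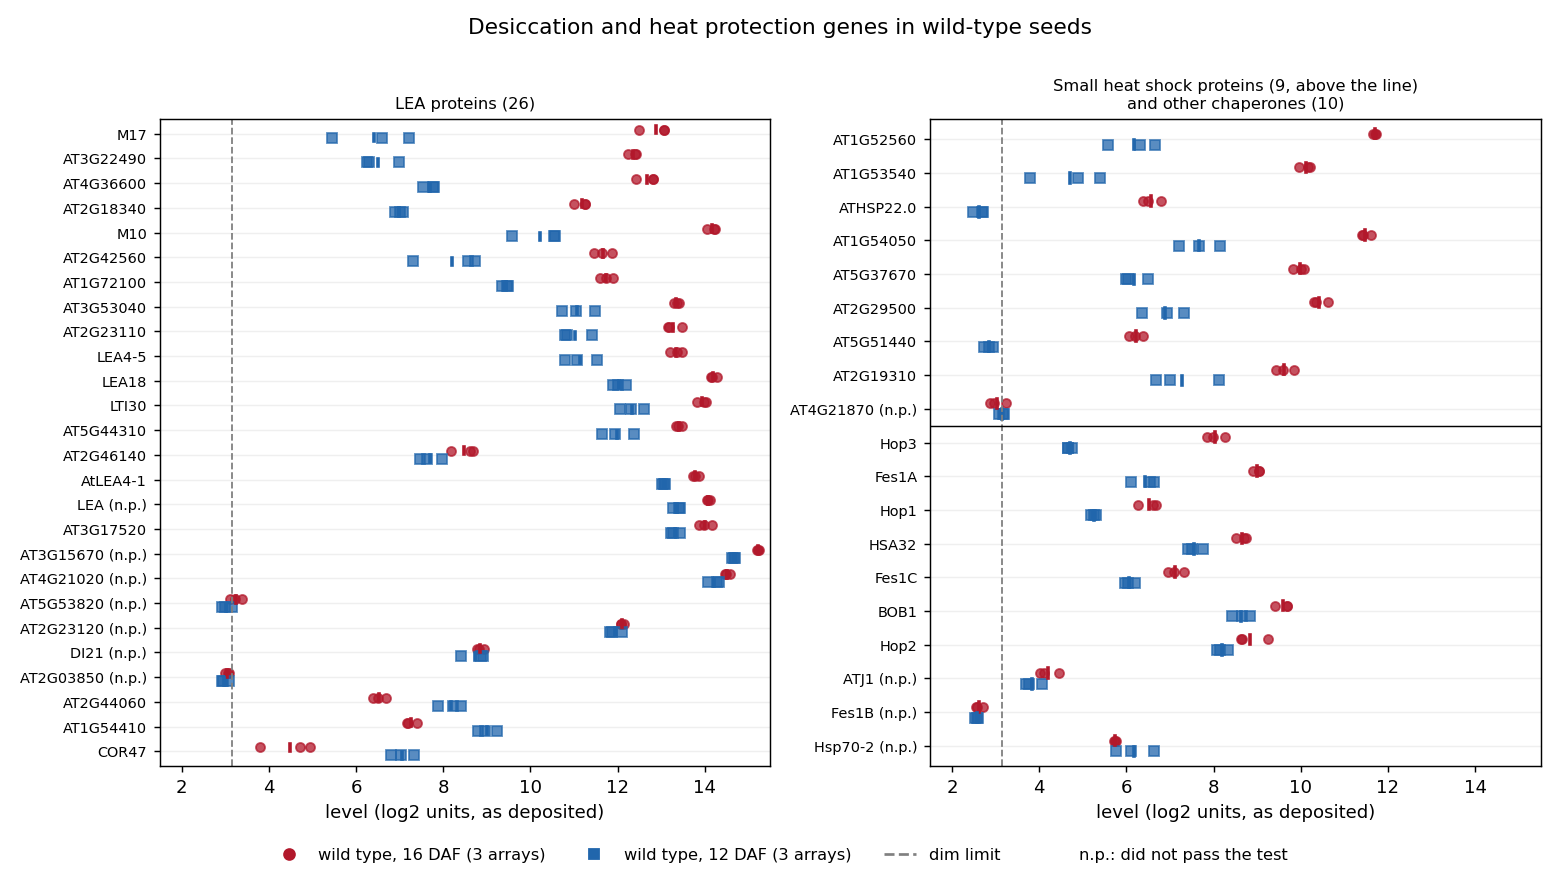
Level of the 26 tested LEA genes (left) and of the 9 small heat shock genes and 10 other chaperone genes (right), with the log2 level as deposited on the horizontal axis; circles are the 3 arrays at 16 DAF, squares the 3 at 12 DAF, short bars the means and the dashed line the dim limit. Of the small heat shock genes 8 of 9 lie far to the right at 16 DAF, while the LEA genes run from a rise of 6.45 in M17 to a fall in COR47.

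Genes for the removal of oxidants did not share that rise. Of 15 tested genes of ascorbate and glutathione metabolism and of the repair of oxidised proteins, 1 was higher and 8 lower, against 32.0% and 30.3% of all tested probe sets. MSRB6, a methionine sulfoxide reductase, had 10.45, 10.44 and 10.39 at 16 DAF, against 12.21, 12.02 and 12.59 at 12 DAF (change −1.85 ± 0.17, adjusted p = 4.07e-07). MSRB5 fell by 1.76 and the monodehydroascorbate reductase ATMDAR2 fell by 1.59 on the log2 scale. SRX, sulfiredoxin, which restores overoxidised peroxiredoxins, rose, with 9.56, 9.08 and 9.17 at 16 DAF against 8.77, 8.27 and 8.57 at 12 DAF (change 0.73 ± 0.18). Of the glutathione S-transferases, a list chosen after values were seen, 3 of 6 tested members fell with levels over the dim limit at 12 DAF, among them GSTU20 by at least 11.9-fold and GSTL3 by 2.19 on the log2 scale, and none rose. GSTU18 passed as lower with every wild-type array under the dim limit, so no fall is given for it.

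Vacuolar processing enzymes, which cleave storage proteins and other vacuolar proteins, split by member. BETA-VPE, the seed-type enzyme, had 13.48, 13.62 and 13.84 at 16 DAF, against 13.66, 13.49 and 13.66 at 12 DAF, and the ages overlapped (change 0.04 ± 0.22). DELTA-VPE, known for cell death in the inner layers of the seed coat, had 6.80, 6.82 and 6.47 at 16 DAF, against 10.30, 10.48 and 9.79 at 12 DAF (change −3.49 ± 0.19, adjusted p = 2.35e-09). ALPHA-VPE had 6.95, 7.14 and 6.90 at 16 DAF, against 10.18, 10.69 and 10.51 at 12 DAF (change −3.46 ± 0.26), and GAMMA-VPE fell by 1.31 on the log2 scale. The other 3 enzymes thus passed as lower and the seed-type enzyme did not pass.

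Protein folding in the endoplasmic reticulum, through which storage proteins pass, had 2 higher and 8 lower genes of 13 tested, and 4 higher and 5 lower with centred arrays. CRT1b, a calreticulin, had 7.00, 6.70 and 6.87 at 16 DAF, against 9.37, 9.48 and 9.61 at 12 DAF (change −2.63 ± 0.17, adjusted p = 1.45e-08). The co-chaperone ATERDJ3B fell by 2.08 and the quality control lectin OS9 fell by 1.72, and DER1 rose by 1.15 ± 0.16. Autophagy genes, 10 tested, gave 3 higher and 4 lower, near the shares of all tested probe sets: ATG8H rose by 1.08 ± 0.15, and ATG8C and ATG8D, of the same family of ubiquitin-like proteins, each fell by 1.15. Ubiquitin-conjugating enzymes gave 3 higher and 2 lower of 10, shares not above those of all tested probe sets, with UBC22 up by 0.73 ± 0.13 and UBC18 down by 1.44 on the log2 scale. Of 4 tested plant U-box ligases 2 were higher with levels over the dim limit. PUB49 rose by 0.63 ± 0.16 and PUB43 by 0.34 ± 0.14, a call that was lost under 8 of the alternatives tried. PUB19 passed with every wild-type array under the dim limit, so no fold is given, and PUB26 did not pass. BGLU19, a β-glucosidase, was the only one of 7 tested genes of the endoplasmic reticulum body and lectin list to pass, with 14.03, 14.08 and 14.06 at 16 DAF against 13.27, 12.98 and 13.05 at 12 DAF (change 0.96 ± 0.28).

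Nuclear genes of photosynthesis went both ways. Of 28 tested, 8 were higher, 13 lower and 7 did not pass, with a median change of −0.33 as deposited and −0.10 with centred arrays. Falls of at least 2-fold numbered 12, against 18.9% of all tested probe sets. PSBY, a small subunit of photosystem II, had 3.65, 3.21 and 2.77 at 16 DAF, against 8.30, 8.86 and 8.52 at 12 DAF (change −5.35 ± 0.20, adjusted p = 9.68e-11). PRK, phosphoribulokinase of the Calvin cycle, had 2.56, 2.95 and 3.01 at 16 DAF, against 7.97, 7.54 and 7.84 at 12 DAF, at least 24.7-fold lower. SBPASE, of the same cycle, had 4.47, 3.47 and 3.05 at 16 DAF, against 7.19, 7.36 and 7.16 at 12 DAF (change −3.57 ± 0.26). These 3 genes were at or near the dim limit in the older seeds.

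Subunits of photosystem I fell with them. PSAE-1 fell by 3.25 on the log2 scale, PSAN was at least 7.62-fold and ATPC1, the γ subunit of the chloroplast ATP synthase, at least 4.82-fold lower at 16 DAF, whereas ATPC2, for the same subunit, rose by 0.46 ± 0.17. The other large falls were those of TROL (3.32 on the log2 scale), which tethers ferredoxin-NADP reductase to the thylakoid, of TRXF2, a thioredoxin (3.14), and of LHCB4.3, an antenna protein (3.09). Among the rises, PAM68, a photosystem II assembly factor, had 4.05, 4.45 and 4.72 at 16 DAF, against 2.40, 2.44 and 2.58 at 12 DAF, at least 2.38-fold higher. CYTC6A rose by 1.61 ± 0.20, PIFI by 1.06 ± 0.20, and the assembly factors LPA1, LPA19 and LPA2 by 0.95 ± 0.21, 0.93 ± 0.19 and 0.68 ± 0.16. PSB27, another assembly factor, overlapped between the ages, with 11.37, 11.38 and 11.43 at 16 DAF against 11.42, 11.35 and 11.35 at 12 DAF.

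Genes of pigment synthesis went both ways. AT1G74470, annotated as a geranylgeranyl reductase, an enzyme that makes the phytyl tail of chlorophyll, had 3.78, 3.03 and 4.1 at 16 DAF, against 8.53, 8.91 and 9.13 at 12 DAF (change −5.22 ± 0.23, adjusted p = 3.95e-10). PORB, protochlorophyllide oxidoreductase, was at least 1.54-fold lower at 16 DAF, and CHLM fell by 0.76. The early steps GSA1 and HEMA2, which make the tetrapyrrole precursor, rose by 1.09 ± 0.17 and 0.92 ± 0.23, as did HEMB1 by 0.44 ± 0.14. Of 11 tested genes 3 were thus higher and 3 lower, shares not above the 32.0% and 30.3% of all tested probe sets. The single gene of chlorophyll breakdown on the list, the chlorophyll b reductase NOL, had 4.73, 5.44 and 5.39 at 16 DAF, against 6.29, 6.76 and 6.23 at 12 DAF (change −1.24 ± 0.20).

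Plastid-encoded genes, all 69 tested, gave 12 higher and 19 lower as deposited, and 18 higher and 12 lower with centred arrays, so that no direction can be given for them as a whole. Grouped by product, a grouping made after the values were seen, 12 of 15 photosystem II genes (psb) were lower and none higher, and 9 were lower with centred arrays. The plastid RNA polymerase genes (rpo) gave 3 higher of 4, and the ribosomal protein genes (rpl and rps) 5 higher and 1 lower of 15, or 10 higher and none lower with centred arrays. The NAD(P)H dehydrogenase genes (ndh) gave 3 higher of 10, and the photosystem I genes (psa) 2 lower of 5. The deposited shares of the ndh, ribosomal protein and psa genes were near the 32.0% and 30.3% of all tested probe sets. psaJ had 10.53, 10.26 and 11.05 at 16 DAF, against 12.99, 13.12 and 12.90 at 12 DAF (change −2.39 ± 0.19, adjusted p = 1.11e-07). psbK fell by 1.69 and psbI fell by 1.64 on the log2 scale. rps2 rose, with 7.87, 7.73 and 8.00 at 16 DAF against 5.76, 6.78 and 6.47 at 12 DAF (change 1.53 ± 0.25), and rpoC1 rose by 1.4 ± 0.24. For psaA the first 12 DAF replicate stood apart, with 9.30, 8.94 and 8.62 at 16 DAF against 8.05, 10.48 and 10.06 at 12 DAF, and the change of −0.58 ± 0.46 did not pass.

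**Figure D3:**
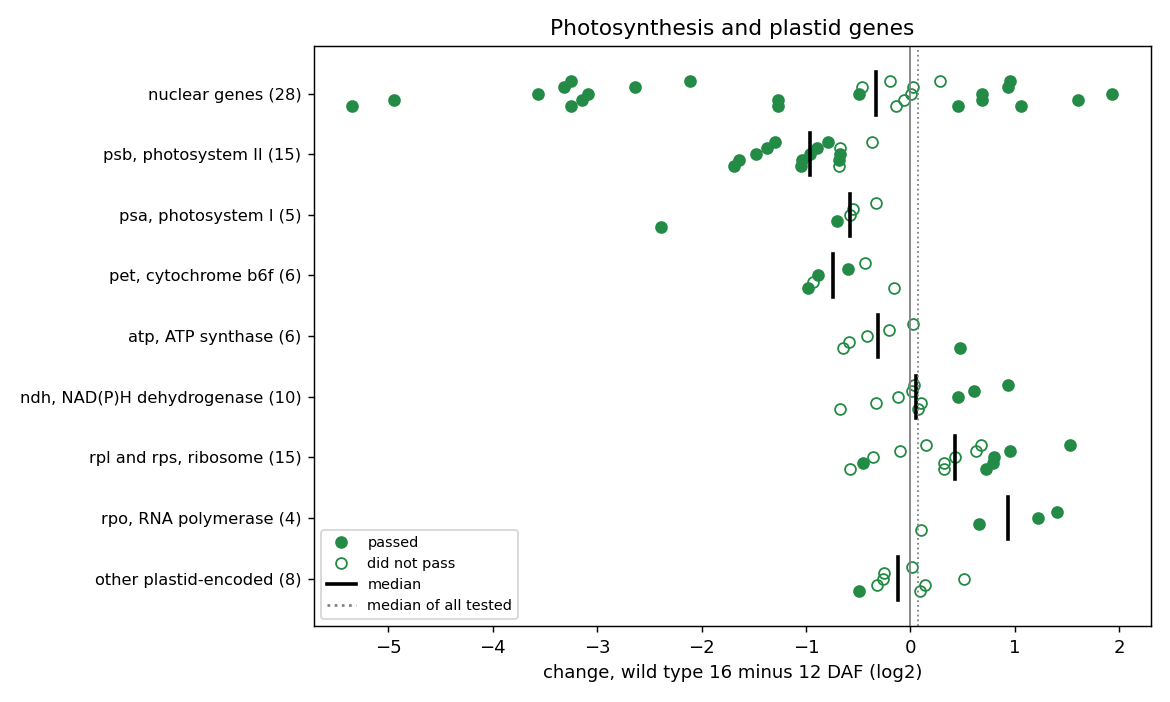
Change between the ages (log2, 16 minus 12 DAF) for 28 nuclear genes of photosynthesis and 69 plastid-encoded genes grouped by product; each point is a gene, filled where it passed the test, black bars are medians and the dotted line is the median of all tested probe sets. The psb genes lie left of 0, with a median of −0.96, and the rpo genes right of it, with a median of 0.94, while the nuclear genes spread over both sides.

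Oil synthesis and its supply fell in part. FaTA and FATB are thioesterases that release fatty acids made in the plastid. FaTA had 5.82, 5.27 and 4.39 at 16 DAF, against 8.81, 8.25 and 8.90 at 12 DAF (change −3.49 ± 0.32, adjusted p = 3.99e-07), and FATB fell by 0.92. In the supply of acetyl-CoA all 5 tested genes passed, 2 higher and 3 lower. ATP-citrate lyase makes cytosolic acetyl-CoA, and its subunit genes diverged. ACLA-2 had 3.07, 2.99 and 2.94 at 16 DAF, against 5.84, 6.23 and 6.05 at 12 DAF, at least 7.39-fold lower. ACLB-1 fell by 2.74 and ACLA-1 fell by 2.06, whereas ACLA-3 had 8.38, 8.22 and 8.48 at 16 DAF, against 7.70, 7.17 and 7.61 at 12 DAF (change 0.87 ± 0.15).

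Genes of oil breakdown rose while seeds were still attached to the plant. All 4 on the list passed as higher, against 32.0% of all tested probe sets, with a median change of 1.39. AIM1, a multifunctional enzyme of fatty acid β-oxidation, had 10.66, 10.67 and 11.10 at 16 DAF, against 8.98, 9.51 and 9.31 at 12 DAF (change 1.54 ± 0.16, adjusted p = 1.9e-06). SDP1, the main lipase of seed oil, had 9.47, 9.37 and 9.68 at 16 DAF, against 7.65, 8.07 and 8.23 at 12 DAF (change 1.52 ± 0.19, adjusted p = 9.08e-06). ICL, isocitrate lyase of the glyoxylate cycle, had 13.74, 13.92 and 13.98 at 16 DAF, against 12.55, 12.67 and 12.84 at 12 DAF (change 1.19 ± 0.14). The ages did not overlap for any of them, as on 66.3% of all tested probe sets, and SDP1-LIKE was at least 2.03-fold higher at 16 DAF.

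Genes of branched-chain amino acid breakdown and electron transfer, the tricarboxylic acid cycle and alternative NAD(P)H dehydrogenases went both ways. MCCA, of leucine breakdown, rose by 1.18 ± 0.18 and ETFQO, which passes electrons from such breakdown to the respiratory chain, by 0.73 ± 0.15, while ETFALPHA fell by 1.70. IVD, also of leucine breakdown, rose by 0.49 ± 0.18 with overlapping ages and lost its call under 5 alternatives. In the tricarboxylic acid cycle list 2 of 6 tested genes were higher (IDH-V by 0.71 ± 0.14 and MAB1 by 0.52 ± 0.14) and 2 lower (SDH2-1 by 1.49 and IDH-VI by 0.91). Both shares were near those of all tested probe sets. NDB2, an NADH dehydrogenase of the outer face of the inner membrane, had 9.56, 9.36 and 9.32 at 16 DAF, against 7.41, 7.27 and 7.46 at 12 DAF (change 2.03 ± 0.18), and NDC1 fell by 0.88. NDB1 and NDB3 did not pass, with changes of −0.43 ± 0.19 and 0.15 ± 0.16.

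Sugar exporters of the seed coat fell. SWEET11 and SAG29 (SWEET15) are known to release sucrose from the seed coat to the embryo. SWEET11 had 7.62, 7.80 and 7.53 at 16 DAF, against 12.10, 12.27 and 12.17 at 12 DAF (change −4.53 ± 0.16, adjusted p = 5.36e-11). SAG29 had 8.89, 9.08 and 8.80 at 16 DAF, against 12.32, 12.44 and 12.35 at 12 DAF (change −3.45 ± 0.27, adjusted p = 1.11e-07). AtVEX1 (SWEET5) fell by 3.40. In contrast, SWEET6 had 10.13, 9.71 and 9.94 at 16 DAF, against 6.72, 5.99 and 5.59 at 12 DAF (change 3.83 ± 0.23, adjusted p = 7.35e-09), and SWEET1 rose by 2.31 ± 0.19. Of 16 SWEET loci with a probe set 8 were tested, with 2 higher and 5 lower. SFP2, a sugar transporter, fell by 3.6, the tonoplast transporters TMT2 and TMT1 changed by 0.89 ± 0.15 and −0.80 ± 0.15, and SFP1 did not pass. Of 5 starch genes 3 were lower and none higher: SBE2.2, a branching enzyme, was at least 6-fold lower at 16 DAF, AMY1, an α-amylase, fell by 1.77 and APL3, of ADP-glucose pyrophosphorylase, by 0.76.

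Many cell wall genes fell. Expansins and xyloglucan endotransglucosylases loosen and remodel walls during growth. Of 29 such loci 10 were tested, with 1 higher and 7 lower (30.3% of all tested probe sets were lower) and a median change of −1.52. XTH32 had 2.79, 2.77 and 2.78 at 16 DAF, against 7.88, 7.57 and 7.72 at 12 DAF, at least 23.7-fold lower. EXPA4 and EXPB1 were at least 7.33-fold and 7.18-fold lower. The exception, EXPA20, was at least 1.1-fold higher, with 3.43, 3.16 and 3.27 at 16 DAF against 2.44, 2.83 and 2.74 at 12 DAF. Genes of wall polysaccharide synthesis and the GH9 glucanases gave no rise and 9 falls among 14 tested. GH9C2 had 5.20, 4.79 and 4.92 at 16 DAF, against 9.22, 9.38 and 9.39 at 12 DAF (change −4.36 ± 0.29), GH9B8 was at least 6.92-fold lower, GH9B7 fell by 2.95, and GAUT15, a gene of the pectin-synthesising galacturonosyltransferase family, fell by 2.61. In the trichome birefringence-like family, whose studied members acetylate wall polysaccharides, 5 of 12 tested genes fell, against 30.3% of all tested probe sets, 7 did not pass and none rose. TBL38 had 5.67, 4.97 and 5.39 at 16 DAF, against 9.58, 9.78 and 9.92 at 12 DAF (change −4.41 ± 0.20), TBL28 fell by 3.55, TBL25 fell by 2.51 and TBL26 fell by 1.95.

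Microtubule genes fell while chromosome genes went both ways. Of 7 tubulin genes 6 were lower and none higher, and 3 were lower with centred arrays. TUB6 had 3.56, 3.35 and 3.63 at 16 DAF, against 6.78, 7.20 and 7.11 at 12 DAF (change −3.52 ± 0.15, adjusted p = 3.91e-10). TUA6 fell by 3.40 and TUB7 fell by 2.37, and TUB5 was at least 1.12-fold lower. Of 21 tested genes of cell division and chromosomes 6 were higher and 4 lower, shares not above those of all tested probe sets. ATMAP65-6, a microtubule-bundling protein, had 4.37, 4.18 and 3.83 at 16 DAF, against 7.79, 7.88 and 8.11 at 12 DAF (change −3.79 ± 0.15), and TON1B, which organises cortical microtubules, fell by 2.30. HTB2, a histone H2B gene, had 7.96, 7.83 and 7.64 at 16 DAF, against 5.85, 6.23 and 5.72 at 12 DAF (change 1.88 ± 0.19), and ATZW10 rose by 1.4 ± 0.19.

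Regulators of the embryo were mostly lower in the older seeds. Of 7 tested, 5 were lower and none higher, with a median change of −1.37; with centred arrays 5 were lower and 1 higher. SPT, a bHLH factor that acts in carpels and in seed dormancy, had 3.73, 3.69 and 3.70 at 16 DAF, against 7.87, 7.63 and 8.19 at 12 DAF (change −4.19 ± 0.18, adjusted p = 2.98e-10). bZIP44 had 7.19, 6.56 and 6.72 at 16 DAF, against 9.93, 9.54 and 9.95 at 12 DAF (change −2.98 ± 0.18). BBM, an AP2-type factor of early embryos, fell by 1.70, EEL, a bZIP factor that binds LEA gene promoters, fell by 1.37, and AGL18, a MADS-box factor, fell by 1.14. BZIP53, which activates maturation genes, had 10.72, 10.52 and 10.43 at 16 DAF, against 10.33, 10.61 and 10.67 at 12 DAF, and the ages overlapped. AGL67 did not pass either (change 0.22 ± 0.16). Over the whole bZIP list 3 of 13 tested genes were higher and 6 lower, or 4 each with centred arrays. BZIP24 was at least 2.49-fold lower, AT4G38900 (bZIP29) fell by 1.68, and AT1G06070 rose by 0.66 ± 0.18.

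Both tested gibberellin receptor genes, which sense the hormone that promotes germination, rose. GID1A had 9.73, 10.01 and 10.02 at 16 DAF, against 7.31, 7.22 and 7.69 at 12 DAF (change 2.51 ± 0.17, adjusted p = 2.04e-08). GID1C had 5.76, 6.49 and 6.21 at 16 DAF, against 3.58, 3.41 and 3.37 at 12 DAF (change 2.70 ± 0.18, adjusted p = 1.47e-08). In both the lowest array at 16 DAF was more than 2 log2 units over the highest at 12 DAF. Auxin genes gave 4 falls and no rise among 9 tested, or 2 rises and 4 falls with centred arrays. IAA31, an auxin response repressor, had 3.03, 3.63 and 2.72 at 16 DAF, against 7.60, 6.89 and 7.10 at 12 DAF (change −4.07 ± 0.25). GH3.9 fell by 2.52 and IAA30 fell by 1.44, and YUC4, an enzyme of auxin synthesis, was at least 2.65-fold lower. Of 4 tested WRKY factors WRKY6 rose by 0.74 ± 0.17 and WRKY22 by 0.61 ± 0.20, while WRKY20 and ZAP1 did not pass. Leaving out the second replicate of either age ended the call of WRKY22 (changes 0.45 and 0.46). In the iron response, bHLH104 and bHLH121 rose by 1.49 ± 0.19 and 0.92 ± 0.16. PYE fell by 0.64 and ILR3 fell by 0.53, calls that were lost with centred arrays.

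Glycosyltransferases, a family examined because UGT85A5 was among the largest rises, had 16 higher and 4 lower members of 32 tested, with a median change of 0.84 against 0.07 over all tested probe sets. These enzymes attach sugars to hormones and secondary metabolites. UGT76E12 had 10.61, 10.14 and 10.00 at 16 DAF, against 6.15, 6.33 and 5.68 at 12 DAF (change 4.2 ± 0.25), and UGT87A2 rose by 3.86 ± 0.21. UGT78D1, which adds rhamnose to flavonols, fell, with 5.87, 5.74 and 5.86 at 16 DAF against 9.08, 8.90 and 9.15 at 12 DAF (change −3.22 ± 0.17, adjusted p = 2.26e-09). Of the defensins, examined because of PDF1.2b, 3 of 9 tested were higher and 2 lower, shares near or under those of all tested probe sets. LCR67 (PDF1.1) had 14.46, 14.31 and 14.51 at 16 DAF, against 11.81, 11.34 and 10.97 at 12 DAF (change 3.05 ± 0.23), PDF1.4 was at least 7.21-fold higher, and LCR68 (PDF2.3) fell by 1.89. Both lists were chosen after their values were seen, so their counts are descriptions.

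Flavonoid genes, which act in the seed coat, gave 4 falls and no rise among 6 tested as deposited, or 2 rises and 3 falls with centred arrays. DFR, dihydroflavonol reductase, had 3.86, 3.69 and 3.65 at 16 DAF, against 5.54, 4.80 and 5.05 at 12 DAF (change −1.4 ± 0.25). BAN, an anthocyanidin reductase of the inner coat and a coat marker, was at least 1.01-fold lower. CHIL passed as lower, a call lost under 5 alternatives. It was over the dim limit on 1 array at 12 DAF and on no array at 16 DAF, so no size of a fall is given. The summed linear level of 3 coat markers ranged from 794 to 993 at 16 DAF and from 922 to 1084 at 12 DAF, and ARA12, the marker that carried it, overlapped between the ages (change −0.10 ± 0.15). The silique wall marker ALC had 3.3, 2.72 and 2.70 at 16 DAF, against 4.63, 3.6 and 4.27 at 12 DAF, and fell by 1.26. The endosperm markers AGL62 and IKU2 were under the dim limit on every wild-type array. The summed level of the 29 nuclear photosynthesis genes was 4983 to 5324 at 16 DAF and 6904 to 7085 at 12 DAF. The part of these tissue differences in the other results was not tested. Among cytochrome P450 genes 4 of 9 tested were higher and 3 lower, against 32.0% and 30.3% of all tested probe sets. CYP78A9, known for its effect on fruit and seed size, had 9.86, 10.46 and 9.88 at 16 DAF, against 12.88, 13.21 and 12.96 at 12 DAF (change −2.95 ± 0.36), CYP71B26 fell by 2.02, CYP71B28 rose by 1.59 ± 0.17, and CYP84A4 was at least 1.77-fold higher.

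**Figure D4:**
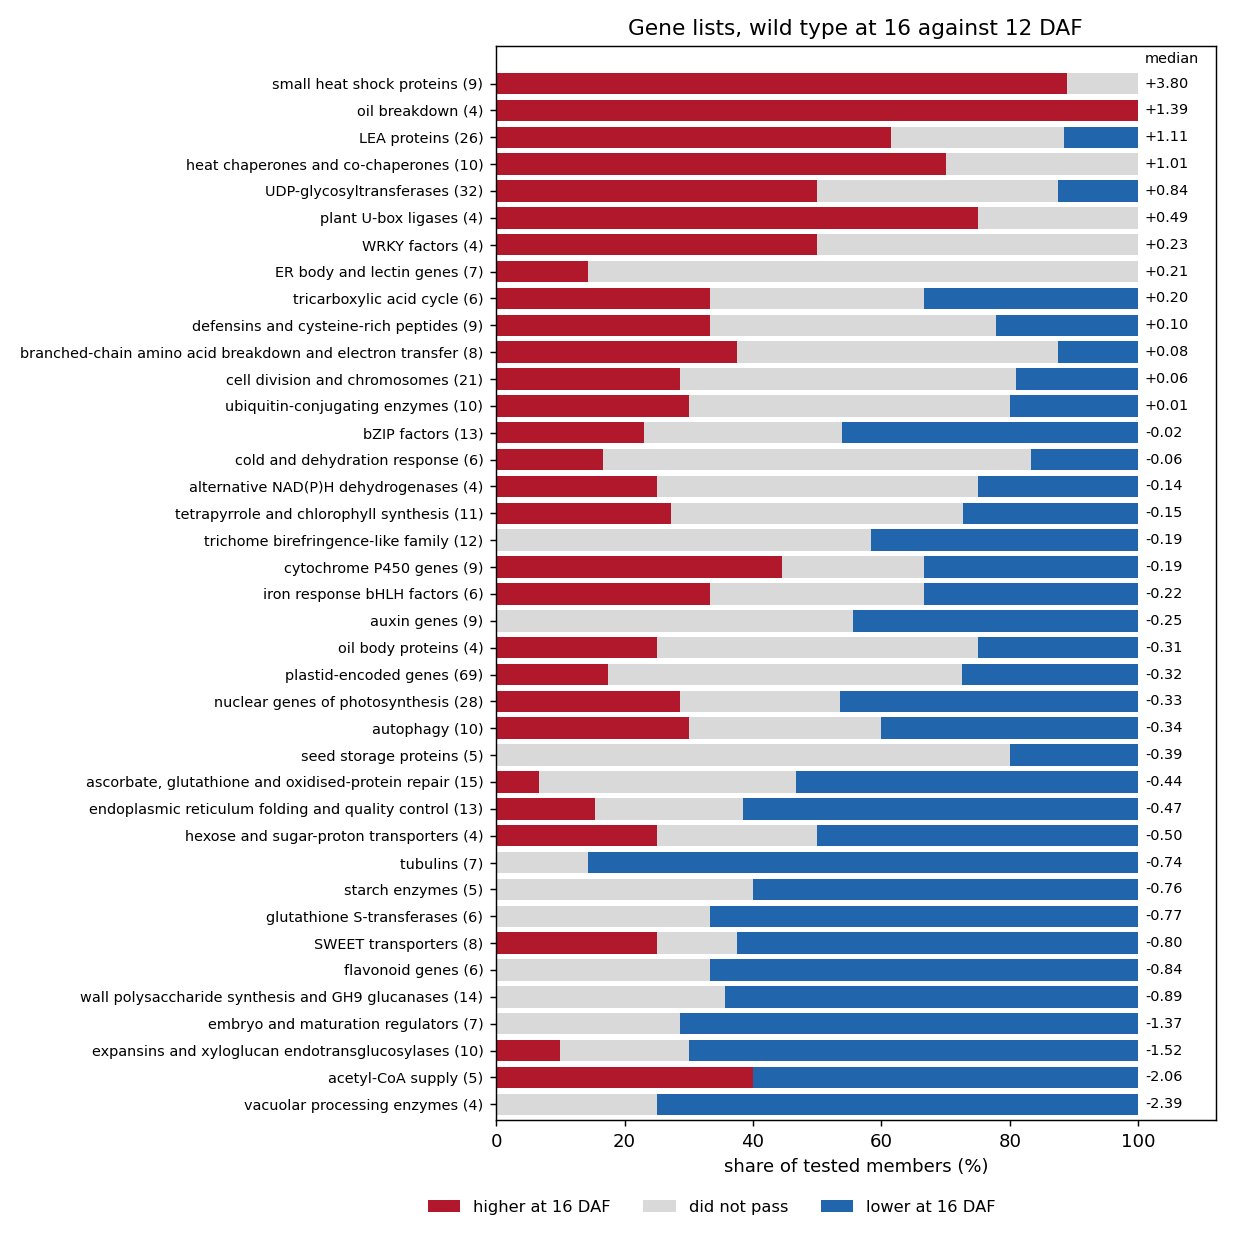
Share of tested members of each gene list with at least 4 tested genes that were higher at 16 DAF, did not pass or were lower at 16 DAF in wild-type seeds (horizontal axis, %), with the number tested beside the name and the median change (log2) at the right. Small heat shock proteins and oil breakdown stand at the top with medians of 3.80 and 1.39, and vacuolar processing and acetyl-CoA supply at the bottom. The shares count PUB19 and GSTU18, whose wild-type arrays were all under the dim limit.

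The abi3-6 arrays show where the course differed between the genotypes. The change in wild type differed from that in abi3-6 on 5973 probe sets (40.1% of those tested). It was the more positive in wild type on 2819 (18.9%) and the more negative on 3154 (21.2%), or on 4157 and 2361 with centred arrays. Without replicate 3 of abi3-6 at 16 DAF these counts were 2496 and 2949, and in the wild-type comparison itself 4839 probe sets were then higher and 4588 lower. In 200 of the more positive and 286 of the more negative calls, every array of one genotype lay under the dim limit. Of the 9283 that passed in wild type, 4731 also passed in this test of the difference, 2124 of them higher at 16 DAF in wild type with the more positive change there and 2268 lower with the more negative. In abi3-6, 27.0% of the tested probe sets were higher and 23.5% lower at 16 DAF, or 23.8% and 21.1% without replicate 3. Both genotypes passed as higher on 2394 probe sets, which is 50.3% of those higher in wild type and 59.4% of those higher in abi3-6. Both passed as lower on 2478, 54.8% of those lower in wild type and 70.9% of those lower in abi3-6. Without replicate 3 of abi3-6 at 16 DAF the shared calls were 2249 higher and 2375 lower. Opposite passing directions were seen on 229 probe sets that were higher in wild type and lower in abi3-6, and on 349 with the reverse. Some tissue marker levels moved with this contrast, each resting on a single gene. The summed linear level of the 3 seed coat markers ranged from 2216 to 2675 at 16 DAF and from 1242 to 1660 at 12 DAF in abi3-6, whereas it overlapped between the ages in wild type. The silique wall marker ALC stood at 12.3 to 26.9 linear units at 16 DAF and at 7.56 to 9.07 at 12 DAF in abi3-6, against 6.48 to 9.82 at 16 DAF and 12.1 to 24.8 at 12 DAF in wild type. The coat sum was carried by ARA12, which changed by 0.83 in abi3-6. Of the 3 coat markers, 2 lay under the dim limit on all abi3-6 arrays at 16 DAF. BAN was among them and went the other way, with a mean of 2.57 at 16 DAF and 3.08 at 12 DAF. ALC was over the dim limit on only 1 abi3-6 array at 12 DAF. The part of these markers in the differences between genotypes was not tested.

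LEA and small heat shock genes mostly had the more positive change in wild type. Of 26 tested LEA genes 16 had the more positive change in wild type and 4 the more negative, and of 9 small heat shock genes 8 and 1. Over all tested probe sets the shares were 18.9% and 21.2%. The counts of both lists were the same without replicate 3 of abi3-6 at 16 DAF. In 2 of these 16 LEA genes and 3 of the 8 small heat shock genes every array of one genotype lay under the dim limit. The other chaperones gave 4 more positive and 1 more negative of 10, and the genes of oxidant removal and repair 2 more positive and 7 more negative of 15, or 1 and 5 without that array. AT1G52560 changed by 5.51 in wild type and by −1.01 in abi3-6 (difference 6.52 ± 0.34, adjusted p = 1.59e-08). AT2G34740, AT2G43580 and AT3G22490, which changed by 7.33, 6.58 and 5.85 in wild type, were under the dim limit on every abi3-6 array of both ages, so no change in abi3-6 and no size of the difference is given. COR47, which fell in wild type, rose by 2.11 in abi3-6 (difference −4.68, adjusted p = 3.46e-06).

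Not every late rise differed. M10 rose by 3.93 in wild type and by 3.48 in abi3-6 (difference 0.46, adjusted p = 0.372), and LEA18 by 2.17 in wild type and by 2.26 in abi3-6 (difference −0.09, adjusted p = 0.721). The falls of the sugar exporters and of FACT were also large in abi3-6. SWEET11 changed by −4.53 in wild type and by −5.17 in abi3-6 (difference 0.64, adjusted p = 0.0335, or 0.52 with adjusted p = 0.0777 without replicate 3 of abi3-6 at 16 DAF), and SAG29 by −3.45 in wild type and by −4.11 in abi3-6 (difference 0.66, adjusted p = 0.196). FACT changed by −7.58 in wild type and was at least 139-fold lower at 16 DAF in abi3-6, where all 16 DAF arrays lay under the dim limit.

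Several falls were larger in wild type than in abi3-6. Of 28 nuclear photosynthesis genes 14 had the more negative change in wild type and 4 the more positive, against 21.2% and 18.9% of all tested probe sets. Without replicate 3 of abi3-6 at 16 DAF the counts were 13 and 3. In 1 of the 14 genes every array of one genotype lay under the dim limit, so it is not a measured larger fall. AT1G74470 changed by −5.22 in wild type and by −0.08 in abi3-6 (difference −5.14, adjusted p = 9.4e-08), PSBY by −5.35 in wild type and −1.48 in abi3-6 (difference −3.87), and PSAE-1 by −3.25 in wild type and −0.12 in abi3-6 (difference −3.13). TUB6 changed by −3.52 in wild type and −0.27 in abi3-6 (difference −3.25), and DELTA-VPE by −3.49 in wild type and 0.23 in abi3-6 (difference −3.72, adjusted p = 2.51e-07). The storage and oil body genes went the other way: 4 of 5 and 4 of 4 had the more positive change in wild type, against 18.9% of all tested probe sets. OLEO3 changed by −2.97 in wild type against −6.39 in abi3-6. AT2G25890, counted among the oil body genes, was under the dim limit on every abi3-6 array, so no change in abi3-6 is given for it.

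Other genes rose in abi3-6 and were low in wild type. AT5G26260 had 2.85, 2.76 and 2.81 at 16 DAF and 2.76, 2.80 and 2.79 at 12 DAF in wild type, all under the dim limit, and was at least 96.1-fold higher at 16 DAF in abi3-6. AT1G29090 was also under the limit on every wild-type array and was at least 58.4-fold higher at 16 DAF in abi3-6. CP1, a papain-type cysteine protease, had 3.22, 4.97 and 4.90 at 16 DAF and 2.47, 3.1 and 2.71 at 12 DAF in wild type, at least 2.31-fold higher, and changed by 8.14 in abi3-6. EXPA9, an expansin, was at least 2.27-fold lower at 16 DAF in wild type and changed by 4.53 in abi3-6, so that the difference was −5.71 or lower (adjusted p of the fitted difference = 5.07e-09).

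**Figure D5:**
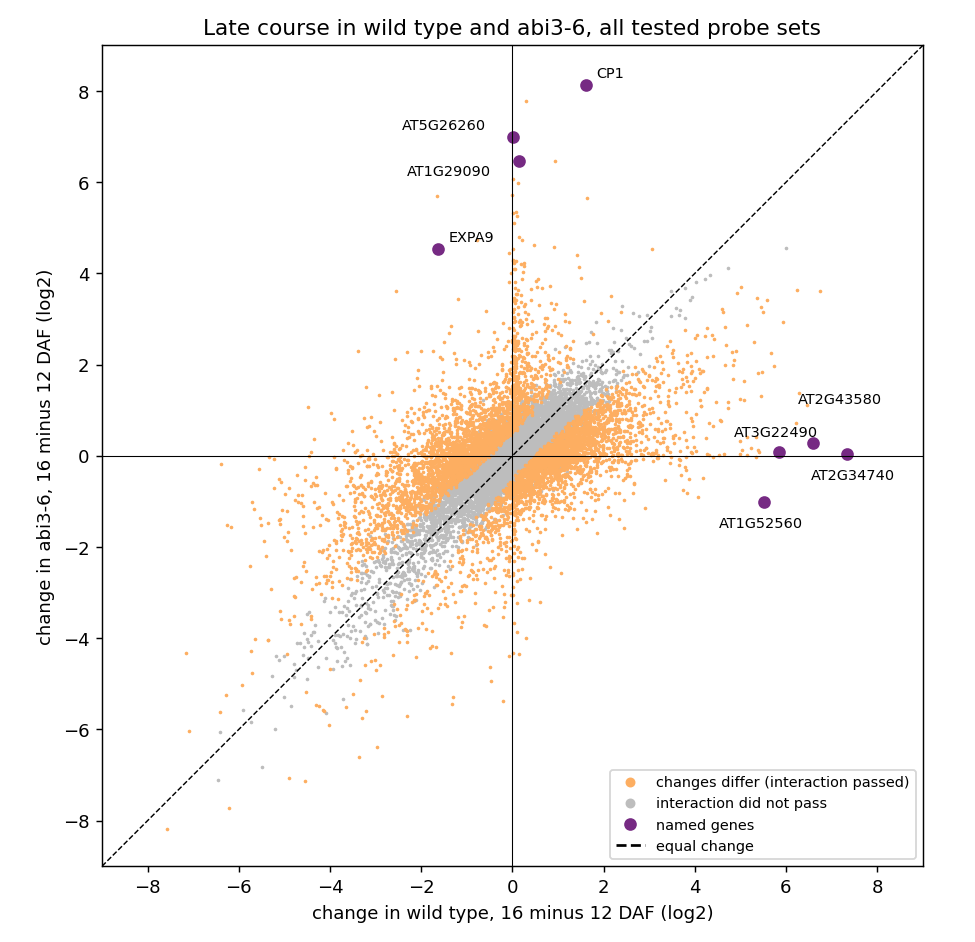
Change between 16 and 12 DAF in wild type (horizontal axis, log2) and in abi3-6 (vertical axis, log2) for the 14894 tested probe sets; orange points passed the test of the difference between the genotypes, grey points did not, purple points are the 8 named genes and the dashed line marks equal change. Points are fitted changes, also where levels lay under the dim limit. AT1G52560 rose in wild type with a change of −1.01 in abi3-6, AT2G34740 was under the dim limit in abi3-6 and AT5G26260 in wild type.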

How the data were processed

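RNA of dissected developing seeds was hybridised to Affymetrix arrays, 3 per group. The values are log2 expression values per probe set deposited by the authors in one table of 12 arrays; per the submitters' processing notes, GCOS 1.3 and GCRMA 2.0.0 were used. The log2 scale was read from the values and is not stated in the sources used here. Gene names came from the array annotation and were updated through RefSeq: 13513 have 1 gene, 503 several and 8730 none, and 13436 of the 13513 matched RefSeq. Probe sets of several genes or none were tested, but none of them was named.

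The deposited values were fitted with limma 3.58.1 (lmFit and eBayes, R 4.3.3), with one mean per group over all 12 arrays, and p-values were adjusted by Benjamini-Hochberg over the 14894 tested probe sets. Python 3.11.15 (pandas 2.3.3, numpy 2.4.6), with matplotlib 3.10.9 for the plots, did the rest. The fit was tested on simulated data. A probe set was tested where at least 3 of 12 arrays reached the 40th percentile of all non-control values (3.15), which is also the dim limit. The number of arrays limits the precision, and p-values measure the spread between these batches of plants.

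Genes were named as follows: the 12 largest rises and 12 largest falls with 1 gene and no overlap; up to 4 passing members of each list, with both directions where they occur; the 4 largest fitted differences between genotypes in either direction; all members of lists with fewer than 5 measured loci; and members of a background role that did not pass. Further list members are given by their values. Members and lists were chosen with earlier results of these data known, the glycosyltransferase, defensin and glutathione S-transferase lists and the plastid classes after their values were seen. Other scalings, filters, models and left-out arrays were tried.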

Additional observations from a re-analysis of the deposited data

Results flagged for a closer look

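The course between 16 and 12 DAF differed between wild type and abi3-6, by the interaction test of the limma fit, on 2819 probe sets with the more positive change in wild type and 3154 with the more negative. Fitted differences, wild-type change minus abi3-6 change on the log2 scale, were 7.30 for AT2G34740, 6.52 for AT1G52560, 6.31 for AT2G43580 and 5.77 for AT3G22490. On the negative side they were −6.97 for AT5G26260, −6.53 for CP1, −6.31 for AT1G29090 and −6.16 for EXPA9. Of these 8 genes AT1G52560 alone was over the dim limit in all 4 groups. AT2G34740, AT2G43580 and AT3G22490 were under it on every abi3-6 array, AT5G26260 and AT1G29090 on every wild-type array, CP1 on every wild-type array at 12 DAF and EXPA9 on every wild-type array at 16 DAF, so the sizes of these 7 are no measurements and have no order.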

How the results depend on the processing

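Age and array batch cannot be told apart, each group had 3 arrays, and values near the dim limit carry little information. Across the alternatives the probe sets higher at 16 DAF numbered 3956 to 6560 and those lower 3721 to 4537, or 4588 without replicate 3 of abi3-6 at 16 DAF. Leaving out one wild-type array gave 4370 to 4588 higher and 4238 to 4434 lower. The difference between genotypes stayed between 2470 and 4157 more positive and between 2361 and 3347 more negative in wild type. The 16 and 12 DAF arrays with the same number did not deviate together (correlations −0.02, −0.01 and 0.07), and a fit with the replicate number as a block gave 4766 higher and 4530 lower. With arrays centred on their medians the median change was −0.16 for storage proteins, −0.086 for oil body proteins, 1.33 for LEA proteins and −0.10 for nuclear photosynthesis genes, and 12 plastid-encoded genes were lower. The LEA median was 0.73 without a filter and 1.52 with a stricter one. With the 6 wild-type arrays alone 3 storage protein genes and 2 oil body genes were lower. A check by gene covered 172 named genes, with 2395 pairs of a gene and an alternative. It left out list members that did not pass and were given only by their values, such as PAP85 and AT3G15670. None of the 172 reversed. Of the pairs, 2367 kept their direction and side of the threshold, 25 lost a call (ILR3, CHIL, PYE, IVD, WRKY22, PUB43, TUB5 and GSTU18) and 3 gained one (NDB1 and AT3G01570). Single arrays ended some of these calls. Without replicate 2 or 3 at 16 DAF, PUB43 changed by 0.25 or 0.38, IVD by 0.38 or 0.45 and CHIL by −0.77 or −0.84. Without replicate 1 at 12 DAF, PUB43 changed by 0.36, IVD by 0.44 and CHIL by −0.64. Without replicate 3 at 12 DAF, PUB43 changed by 0.31, IVD by 0.39 and GSTU18 by −0.53. Without replicate 2 at 12 DAF, PUB43 changed by 0.36, WRKY22 by 0.46 and NDB1, which then passed, by −0.54; WRKY22 changed by 0.45 without replicate 2 at 16 DAF. Centring took the calls of ILR3, PYE, CHIL, TUB5 and GSTU18. The cause was not tested for any of these. The changes given for CHIL and GSTU18 are fitted values at levels under or near the dim limit.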
